A study of Mus musculus with 2 samples.

Results

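VSMCs-1 is the smaller of the 2 classes of vascular smooth muscle cells in a single-cell RNA profile of the mouse aorta. Its members are the barcodes that the authors' deposited annotation places in that class, each matched by name to its column of counts. There were 293 of them among 5584 annotated cells, 134 of 3060 in the control library and 159 of 2524 in the diabetic library. Each library was made from the pooled aortae of 4 male mice, aged 17 weeks, of the C57BL/6 strain and lacking Apoe, a lipid-carrying protein whose loss leads to high plasma cholesterol and atherosclerosis. The diabetic mice had received streptozotocin, a toxin of the insulin-producing beta cells, at 55 mg/kg on each of 5 days from 6 weeks of age. The control mice had received the citrate vehicle, and both groups were followed for 10 weeks. Both groups carry the Apoe deletion, so neither library represents a normal artery. The tissue was digested, and cells that took up calcein and excluded 7AAD, a sign of intact cells, were sorted and loaded. Transcripts were counted as unique molecular identifiers (UMIs), 1 for each captured RNA molecule. The series addresses AP-1 transcription factors in diabetes-associated atherosclerosis.

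Vascular smooth muscle cells line the media of the aorta in layers between sheets of elastic fibres. Contractile cells hold smooth muscle actin, transgelin and the smooth muscle myosin heavy chain, and in atherosclerosis they can lose these proteins and take on matrix-producing or inflammatory states. AP-1 is a dimer of Fos and Jun proteins that belongs to the immediate early genes, which stressed or stimulated cells, freshly digested ones included, switch on within minutes.

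The control library held 15314749 UMIs over 4215 barcodes and the diabetic library 17647604 over 3458, every barcode with at least 500 UMIs. VSMCs-1 contributed 323757 and 436147 UMIs, against 2783387 and 5718684 for VSMCs-2, the larger smooth muscle class. The libraries shared 15 barcode sequences, of which 2 belonged to a VSMCs-1 cell in 1 library and 0 in both. Apoe itself had 1 UMI in control and 0 in diabetic VSMCs-1. With 1 library per group there is no replicate and no test. All intervals below are 95% intervals that cover counting error only. They are exact, by the Poisson, conditional binomial or Clopper-Pearson method for levels, ratios and shares. Only the intervals of a ratio of ratios use a log-normal approximation. Levels are in CPM, the UMIs of a gene over all UMIs of the class in that library, scaled to counts per 1e+06 UMIs. A gene was called where both sides together had at least 20 UMIs, the ratio was at least 1.5-fold and its interval excluded 1. The authors drew the classes from these same cells, so VSMCs-1 against VSMCs-2 is a description of how they differ.

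The smooth muscle label held for most cells. Myh11 (chr16:14194535-14291372, minus strand, GRCm38), which encodes smooth muscle myosin, Acta2 (chr19:34241090-34255590, minus strand), which encodes smooth muscle actin, and Tagln (chr9:45929619-45936058, minus strand), which encodes transgelin, were all detected in 108 of 134 control and 115 of 159 diabetic cells. None of the 3 was seen in 2 and 7 cells, all of them shallow. Acta2 reached 20682 CPM in control VSMCs-1 and 18253 CPM in diabetic VSMCs-1, against 30053 and 28704 CPM in VSMCs-2. Tagln stood at 8519 and 7406 CPM, against 12479 and 11883 CPM. Myh11 stood at 1368 and 1298 CPM, against 1933 and 2473 CPM. The 3 transcripts thus kept the same order as in VSMCs-2, at ratios of 0.683 to 0.708 in control and 0.525 to 0.636 in the diabetic library. Myh11 was detected in 82.8% of control and 73.0% of diabetic cells, and in 47.0% and 41.5% after each cell was thinned to 500 UMIs. Macrophages, which should lack it, showed it in 2.55% and 6.55% of cells at median depths of 4506 and 4129 UMIs, and in 0.196% and 2.62% after thinning. Over 8450 control and 8368 diabetic genes, the log2 profile of VSMCs-1 correlated most highly with that of VSMCs-2 among the classes compared (Pearson r = 0.948 in each library), ahead of the fibroblast class Fib-2 (r = 0.809 and 0.829). These are correlations across genes of the same libraries and only describe likeness.

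Some members carried other cells' markers. In 9 control and 19 diabetic cells a marker list of another cell type held at least as many UMIs as Myh11, Acta2 and Tagln together, against 7 and 16 of the more numerous VSMCs-2 cells. A single control cell of 4382 UMIs held 220 of the 390 endothelial and 322 of the 340 adipocyte marker UMIs of its class, with 1 UMI of the smooth muscle markers. In the diabetic library a cell of 1819 UMIs held 131 of 309 and 147 of 265, with 0 smooth muscle UMIs. The endothelial UMIs of both cells came from only some of the 12 listed genes. Cdh5, Kdr, Egfl7, Emcn and Cldn5 had 0 UMIs in all control VSMCs-1 cells, and Tek, Kdr, Emcn and Cldn5 in all diabetic ones. More than 50% of the UMIs were haemoglobin in 1 control and 3 diabetic cells. Fibroblast markers had UMIs for all 12 listed genes in both libraries and summed to 2434 and 1594 CPM. In VSMCs-2 all 12 had UMIs too, with sums of 2141 and 1221 CPM. T cell markers summed to 4 and 3 UMIs and mesothelial markers to 0 and 1 UMI. The part of these cells in the results below was not tested, except where a value without them is given.

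VSMCs-1 cells were shallow as a class but not uniformly. The median cell had 2128 UMIs in control (range 523 to 7285) and 2237 in diabetic VSMCs-1 (504 to 10662). VSMCs-2 cells had medians of 5547 and 6523 and none below 2587 and 2432 UMIs, so the ratio of medians was 0.384 and 0.343. Median genes per cell were 987 and 1004, against 1896 and 2131. The mitochondrial share, a common sign of damaged cells, was 4.49% and 4.67% in the median VSMCs-1 cell, and 4.59% and 5.50% in VSMCs-2. A total of 49 control cells (36.6%, interval 28.4 to 45.3%) and 73 diabetic cells (45.9%, 38.0 to 54.0%) were at least as deep as the shallowest VSMCs-2 cell of their library. These deeper cells supplied 60.5% and 75.6% of the UMIs of the class. The other 85 and 86 cells lay in a range of depth where VSMCs-2 has no member. For a comparison at like depth, the deeper cells (medians 3785 and 4319 UMIs) were set against the 122 control and 221 diabetic VSMCs-2 cells that were no deeper than the 90th percentile of VSMCs-1 (medians 3894.5 and 4841 UMIs).

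**Figure D1:**
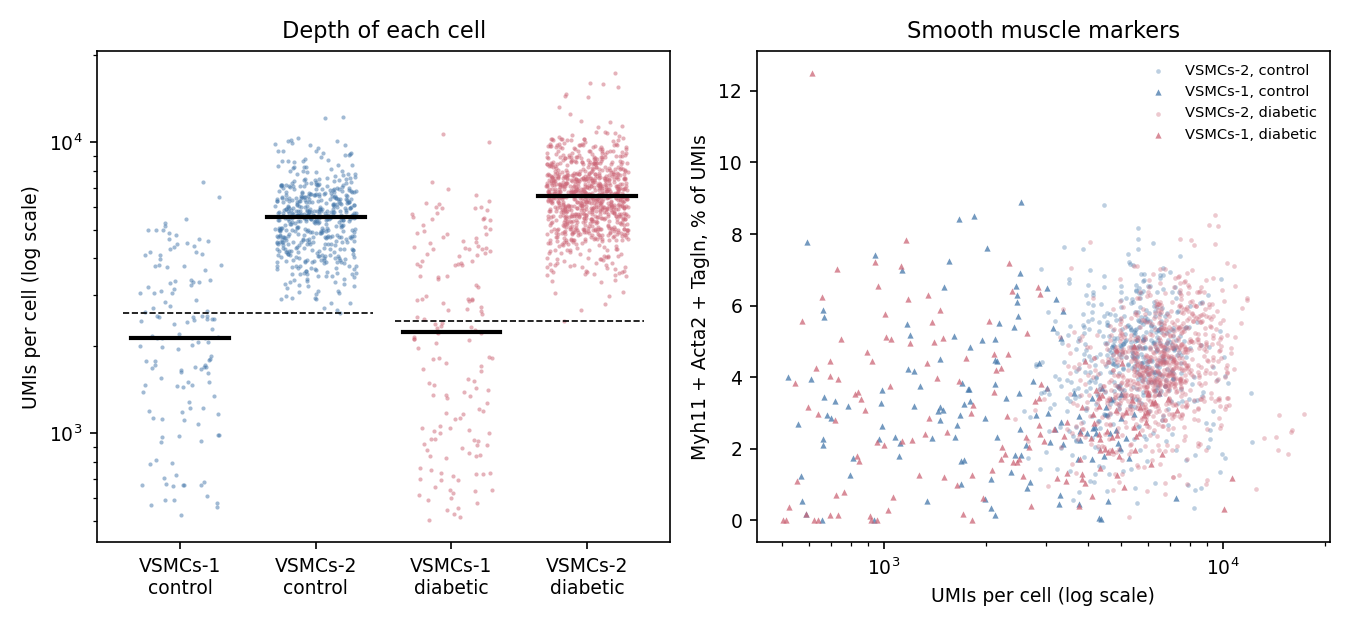
UMIs per cell on a log axis for each cell of both smooth muscle classes and libraries (left; bars are medians, dashed lines the shallowest VSMCs-2 cell of a library), and the summed share of Myh11, Acta2 and Tagln in each cell, in percent of its UMIs, against its depth (right). VSMCs-1 reaches from about the 500 UMI floor into the range of VSMCs-2, and its medians of 2128 and 2237 UMIs lie below the dashed lines.

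By number, VSMCs-1 made up 4.38% (3.68 to 5.17%) of annotated control cells and 6.30% (5.38 to 7.32%) of annotated diabetic cells. VSMCs-2 made up 16.2% and 33.9%. Among smooth muscle cells alone, the VSMCs-1 share was 21.3% (18.1 to 24.7%) in control and 15.7% (13.5 to 18.05%) in the diabetic library. The class was thus a larger share of all cells and a smaller share of smooth muscle cells in the diabetic library. Digestion, sorting and the choice of which barcodes to annotate can all set such shares, and their part was not tested.

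The genes highest in VSMCs-1 over VSMCs-2 included a developmental transcription factor and several secreted or surface proteins. Of 8262 genes with enough UMIs in both libraries, 151 (1.83%) were higher and 169 (2.05%) lower in VSMCs-1 in both. With trimmed-mean (TMM) scaling, which lowered the ratios, 125 were higher and 242 lower. At matched depth, 144 of 3705 (3.89%) were higher and 183 (4.94%) lower. Of the 151, 115 could be tested at matched depth and 84 were called in the same direction, 58.3% of the 144 called there, with 0 in the opposite direction. Both comparisons share cells, so this overlap of calls follows in part from the shared cells. The 12 named here are those whose intervals lay farthest from 1.

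Adamtsl1 (chr4:85514172-86428385, plus strand), a secreted matrix protein related to the ADAMTS proteases, stood at 111 CPM in control and 202 CPM in diabetic VSMCs-1, against 2.16 and 2.27 CPM in VSMCs-2. Its ratios were 51.6 (21.5 to 150) and 88.8 (49.3 to 173). Dlx5 (chr6:6877805-6882085, minus strand), a homeobox factor of the neural crest and skeleton, stood at 80.3 and 105 CPM, against 3.23 and 1.40 CPM. Both genes were close to absent from VSMCs-2 and present in VSMCs-1 of both libraries, in which they had 36 and 88 UMIs (Adamtsl1) and 26 and 46 UMIs (Dlx5). Dlx5 reached 11.6 and 19.4 CPM in Fib-2 and 22.0 and 15.2 CPM in endothelial cells, and Adamtsl1 51.6 and 35.3 CPM in the fibroblast class Fib-3. Gpc3 (chrX:52272426-52613950, minus strand), a cell-surface glypican, stood at 176 and 287 CPM, against 12.2 and 11.7 CPM in VSMCs-2. Gpc3 was not particular to smooth muscle, since Fib-1 held 153 and 114 CPM and Fib-3 205 and 151 CPM.

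Secreted proteins made up much of the rest. Enpp2, which encodes autotaxin, the enzyme that makes lysophosphatidic acid, stood at 250 and 241 CPM against 19.0 and 14.9 CPM. Frzb, a secreted Wnt antagonist, stood at 309 and 305 CPM against 39.2 and 27.6 CPM. The elastic fibre proteins Fbln1 and Mfap5 had ratios of 11.3 and 16.2, and of 4.07 and 4.16. The diabetic over control ratios within VSMCs-1 were 0.962 (0.713 to 1.30) for Enpp2 and 0.987 (0.756 to 1.29) for Frzb, whose levels therefore did not separate the groups beyond counting error. The other 5 of the 12 were the zinc finger factor Tshz2 (15.6 and 11.2), the prolyl hydroxylase Egln3 (8.60 and 16.0), the thrombomodulin gene Thbd (7.19 and 8.11), Fez1 (6.20 and 5.53) and Lrrc17 (5.39 and 5.43).

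The deeper cells carried most of this pattern. Adamtsl1 stood at 169 CPM in deeper and 23.4 CPM in shallower control cells, and at 252 and 47.0 CPM in the diabetic library. Gpc3 stood at 266 and 39.1 CPM in the control library and at 367 and 37.6 CPM in the diabetic one. Of 8 of these genes that were picked after their values were seen (Dlx5, Gpc3, Adamtsl1, Frzb, Enpp2, Lrrc17, Thbd and Fez1), at least 3 were detected in 34 of 49 deeper control cells (69.4%) and 60 of 73 deeper diabetic cells (82.2%). In the depth-matched VSMCs-2 cells the same held for 5 of 122 (4.10%) and 7 of 221 (3.17%). The shallower cells showed it in 7 of 85 and 5 of 86, where fewer UMIs per cell also leave fewer genes to detect. The 8 genes were among those highest over VSMCs-2 in these same cells, with most UMIs of VSMCs-1 from its deeper cells. These contrasts therefore follow in part from the choice of genes. Of the 133 higher genes that could be tested in the shallower cells, 7 were called higher there too, against all VSMCs-2 cells. In diabetic shallower cells the ratios of Thbd (0.456, 0.0114 to 2.59) and Fez1 (0.961, 0.310 to 2.27) to VSMCs-2 lay below 1, with intervals that include 1.

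**Figure D2:**
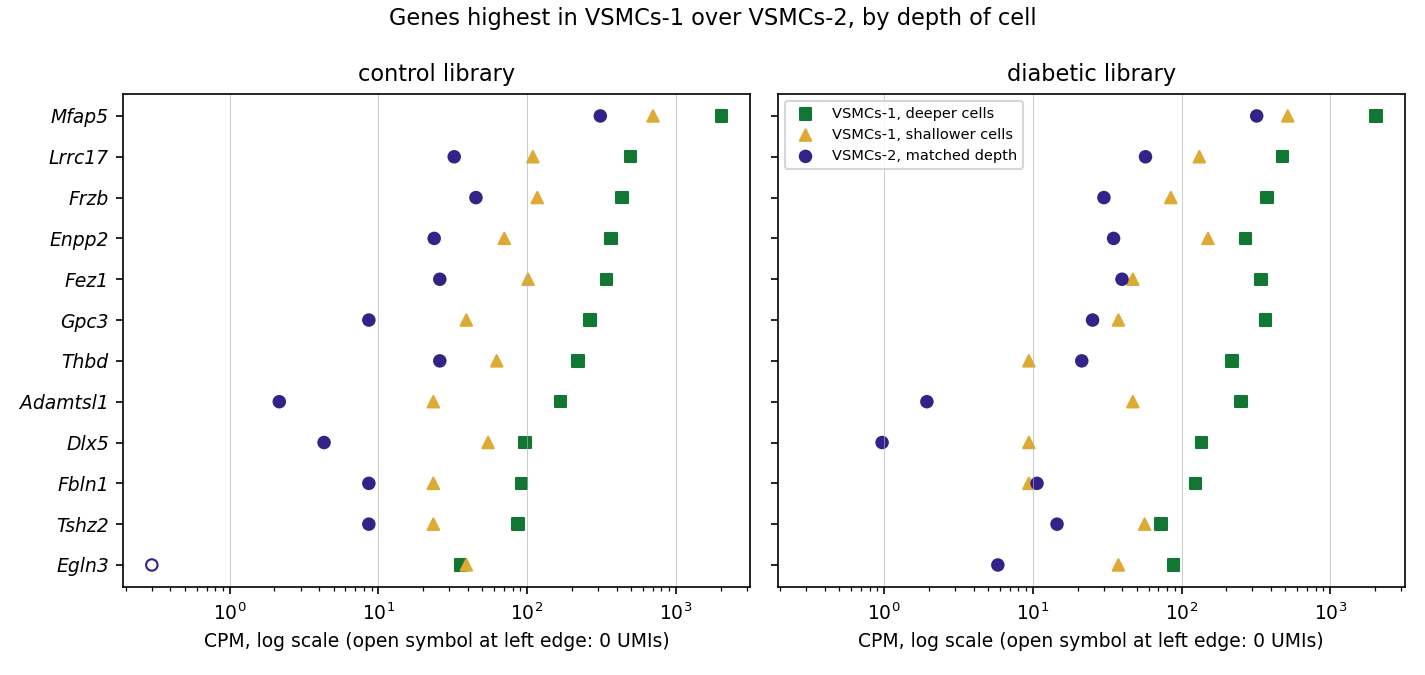
CPM, on a log axis, of the 12 genes highest in VSMCs-1 over VSMCs-2, in deeper VSMCs-1 cells (squares), shallower VSMCs-1 cells (triangles) and VSMCs-2 cells of matched depth (circles), for the control library (left) and the diabetic library (right). The squares lie right of the circles for all 12 genes in both libraries, as for Adamtsl1 at 169 against 2.16 CPM in control and 252 against 1.94 CPM in diabetic cells.

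Of 17 elastic fibre genes tested, 5 were higher in VSMCs-1 in both libraries and 0 lower, beside 1.83% higher over all genes. The 5 were Fbln1, Fbln5, Mfap2, Mfap5 and Ltbp2. At matched depth 9 of 15 were higher and 0 lower, beside 3.89% higher over all genes, with median log2 ratios of 0.96 in control and 0.89 in the diabetic library, against 0.01 and -0.01 over all genes tested at matched depth. Fbln5, which encodes a fibulin needed to assemble elastic fibres, stood at 1202 and 1291 CPM in VSMCs-1 against 410 and 378 CPM in VSMCs-2. Eln (chr5:134702593-134747323, minus strand), which encodes elastin, stood at 2916 and 3593 CPM against 2776 and 1864 CPM. Its ratio was 1.05 in control and 1.93 in the diabetic library, and 1.62 (1.46 to 1.79) and 2.60 (2.42 to 2.80) at matched depth. The elastin ratios were thus larger at matched depth than over all cells. In the shallower cells the summed list stood at 1.09 (1.02 to 1.17) times its VSMCs-2 level in control and 0.869 (0.791 to 0.954) times in the diabetic library, against 2.16 and 2.61 times in the deeper cells at matched depth.

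Among Wnt antagonists and binding proteins, Frzb, Sfrp2 (4.23 and 5.24) and Gpc3 were higher. Among homeobox and other factors known from neural crest, Dlx5, Prrx1 (1.81 and 2.11) and Sox9 (2.58 and 5.39) were higher. Both lists were assembled after values were seen, so a count of their called members carries no weight. Col15a1, a collagen of basement membranes, was higher (2.56 and 2.20), while Col4a1, the main basement membrane collagen, was lower (0.467 and 0.646). Of the 22 collagen genes and enzymes tested no others were called. The chemokine Cxcl12 was higher (2.79 and 2.57), as was the long noncoding RNA Meg3 (2.15 and 1.77). Of the genes listed for modulated smooth muscle cells, Fn1 (0.505 and 0.438), Thbs1 and Tnc were lower and Sox9 higher, of 24 tested. Over all genes 2.05% were lower and 1.83% higher.

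Contractile genes were lower in sum. The 30 listed genes together stood at 0.800 of their VSMCs-2 level in control and 0.734 in the diabetic library, and 7 were lower in both and 0 higher, beside 2.05% lower over all genes. Within single libraries 7 were lower and 1 higher in control, and 15 lower and 0 higher in the diabetic library. Over all genes, 333 of 8308 were lower and 378 higher in control. In the diabetic library 561 of 9922 were lower and 620 higher. The 7 contractile genes lower in both were Synpo2, Des, Ppp1r14a, Ppp1r12b, Mcam, Crip1 and Sncg. Crip1, a small LIM protein, stood at 1912 and 1378 CPM against 3873 and 3196 CPM, the largest gap of these in CPM. Ppp1r14a, which encodes the myosin phosphatase inhibitor CPI-17, stood at 133 and 105 CPM against 200 and 313 CPM. At matched depth 6 of 30 were lower, Tagln among them, beside 4.94% lower over all genes. Actg2, the enteric smooth muscle actin, was the 1 called higher there, beside 3.89% higher over all genes. Its ratio was 3.31 in control and at the 1.5-fold limit in the diabetic library. Transcription factors of smooth muscle showed 3 lower of 22 and 0 higher, beside 2.05% lower over all genes. The 3 were the forkhead factor Foxc1 and the Notch targets Heyl (0.325 and 0.313) and Hes1 (0.359 and 0.504). The summed list of these factors stood at 0.965 (0.908 to 1.03) of its VSMCs-2 level in control and 1.12 (1.07 to 1.18) in the diabetic library.

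The 12 genes farthest below VSMCs-2 were mainly immediate early genes and signalling genes. Atf3, a stress-induced partner of AP-1 proteins, stood at 154 and 186 CPM against 614 and 602 CPM. Egr1, an early growth response factor, stood at 192 and 170 CPM against 590 and 683 CPM. Klf2 stood at 37.1 and 25.2 CPM against 128 and 163 CPM, and Nr4a1, an orphan nuclear receptor, at 117 and 117 CPM against 381 and 394 CPM. Each of these was lower in both libraries, at 0.155 to 0.324 of VSMCs-2. Rgs17, a regulator of G protein signalling, had 2 UMIs in each VSMCs-1 library, with ratios of 0.0877 (0.0106 to 0.321) and 0.104 (0.0125 to 0.380). The others were Efhd1 (0.287 and 0.354), the receptor tyrosine kinase gene Ntrk3 (0.191 and 0.214), the retinol carrier gene Rbp4 (0.367 and 0.408), Rrad (0.222 and 0.321), the tenascin gene Tnc (0.189, and 0.0780 on 2 diabetic UMIs, interval 0.00941 to 0.284), Fosb and Jun.

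Of a list of immediate early genes that leaves out the AP-1 subunits, 20 of 38 tested were lower in VSMCs-1 in both libraries and 0 higher, beside 2.05% lower over all genes, with median log2 ratios of -0.92 and -0.80, against -0.03 and 0.01 over all genes. At matched depth 18 of 33 were lower, beside 4.94% over all genes. Here the shallower cells went the same way as the deeper ones, with the summed list at 0.548 and 0.393 of VSMCs-2 in shallower cells and 0.362 and 0.446 of depth-matched VSMCs-2 in deeper cells. Heat shock chaperones showed 2 lower of 20 in both libraries over all cells, beside the 2.05% over all genes.

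**Figure D3:**
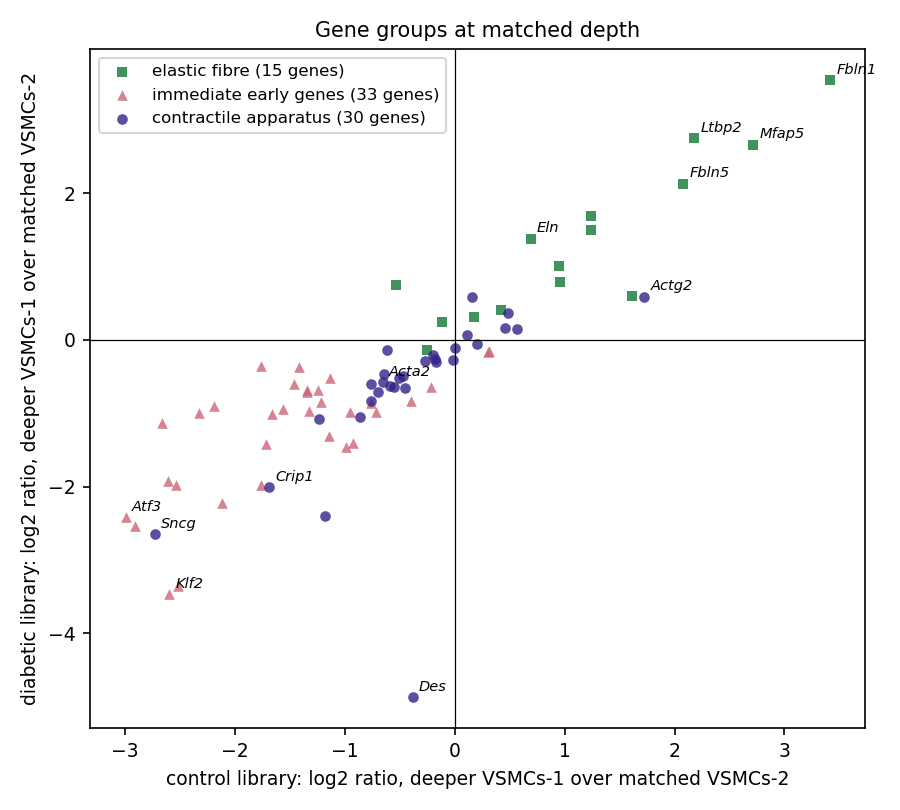
Log2 ratio of deeper VSMCs-1 over depth-matched VSMCs-2 cells in the control library (x axis) and the diabetic library (y axis), 1 point per gene, for the elastic fibre, immediate early and contractile lists. Most elastic fibre genes lie above 0 in both libraries (median log2 ratios 0.96 and 0.89), the immediate early genes lie mostly below 0 in both, and the contractile genes lie closer to 0.

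The AP-1 subunits followed the immediate early list. The promoters of 3 of them and of Nr4a1 are shown because these genes were lower together and each holds TGACG, the first bases of the site bound by CREB and ATF proteins, which are known to drive immediate early genes. Each window is the 250 bases before the RefSeq gene start on GRCm38.p6, read 5′ to 3′ on the strand of the gene, with TGACG, or CGTCA where it lies on the other strand, in capitals.
Fos promoter, chr12:85473640.0-85473889.0, plus strand: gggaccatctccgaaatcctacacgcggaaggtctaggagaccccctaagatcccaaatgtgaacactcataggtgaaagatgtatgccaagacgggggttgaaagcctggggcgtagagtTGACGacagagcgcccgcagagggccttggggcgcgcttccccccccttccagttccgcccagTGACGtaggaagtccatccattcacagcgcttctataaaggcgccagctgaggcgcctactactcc
Fosb promoter, chr7:19310046.0-19310295.0, minus strand: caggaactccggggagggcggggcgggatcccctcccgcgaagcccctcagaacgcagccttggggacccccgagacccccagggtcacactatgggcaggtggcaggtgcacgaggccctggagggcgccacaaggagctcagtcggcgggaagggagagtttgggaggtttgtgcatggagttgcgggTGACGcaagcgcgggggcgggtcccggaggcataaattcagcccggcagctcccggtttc
Junb promoter, chr8:84978749.0-84978998.0, minus strand: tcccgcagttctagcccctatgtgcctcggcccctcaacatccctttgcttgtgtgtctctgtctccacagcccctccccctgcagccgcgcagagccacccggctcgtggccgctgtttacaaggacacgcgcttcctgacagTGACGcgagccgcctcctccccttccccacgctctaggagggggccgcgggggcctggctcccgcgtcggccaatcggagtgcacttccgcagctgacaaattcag
Nr4a1 promoter, chr15:101266596.0-101266845.0, plus strand: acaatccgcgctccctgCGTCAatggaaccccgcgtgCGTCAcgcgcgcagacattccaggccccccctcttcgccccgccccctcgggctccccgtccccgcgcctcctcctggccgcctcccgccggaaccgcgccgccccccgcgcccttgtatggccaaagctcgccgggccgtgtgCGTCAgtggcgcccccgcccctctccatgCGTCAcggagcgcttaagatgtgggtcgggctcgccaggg
Fos holds the motif 125 and 62 bases before its start, Fosb 56 bases and Junb 102 bases before theirs, and Nr4a1 has 4 matches. In all, 17.8% of 32851 promoter windows of this length hold TGACG on either strand. Jun, Jund and Fosl2 held no match in their windows. The full palindrome TGACGTCA (1.55% of windows), the AP-1 site TGANTCA (6.75%) and the CArG box bound by serum response factor (1.47%) were found in none of these windows. Such a match is only a run of letters and was not tested for binding.

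Fos had the highest AP-1 level, at 2388 CPM in control and 2297 CPM in diabetic VSMCs-1 against 5043 and 4426 CPM in VSMCs-2. Fosb stood at 158 and 284 CPM against 599 and 645 CPM, Junb at 167 and 282 CPM against 416 and 574 CPM, and Jun at 71.0 and 110 CPM against 271 and 283 CPM. Jund stood at 46.3 and 64.2 CPM against 82.3 and 158 CPM. These 5 were lower in VSMCs-1 in both libraries. Fosl2 stood at 43.2 and 20.6 CPM against 46.0 and 52.8 CPM and was not called in control. Fosl1 had 0 UMIs in both VSMCs-1 libraries, which allows up to 9.27 and 6.88 CPM, against 4.31 and 7.69 CPM in VSMCs-2. The summed AP-1 level was 0.445 (0.416 to 0.475) and 0.498 (0.471 to 0.526) of that in VSMCs-2, and 0.286 and 0.436 at matched depth.

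Between the groups, Fosb and Junb were called higher in diabetic VSMCs-1, 2 of the 6 subunits tested, beside 130 of all 4093 genes tested (3.18%). Fosb was 1.80 (1.29 to 2.55) times and Junb 1.69 (1.22 to 2.37) times the control level, and the deeper cells alone gave 1.95 and 2.14. Jun had a ratio of 1.55 (0.924 to 2.67), Jund of 1.39 (0.715 to 2.79), Fosl2 of 0.477 (0.182 to 1.18) and Fos of 0.962 (0.875 to 1.06), and none of these 4 was called. The sum, most of which is Fos, was 1.06 (0.979 to 1.16) times control. It was 1.26 (1.13 to 1.41) times control in the deeper cells, while it was 0.870 with every cell weighted equally, so its direction depended on which cells weighed most. In VSMCs-2 the diabetic over control ratios were 1.08 for Fosb, 1.38 for Junb and 1.92 for Jund. Whether VSMCs-1 and VSMCs-2 differed in these ratios cannot be tested with 1 library per group.

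**Figure D4:**
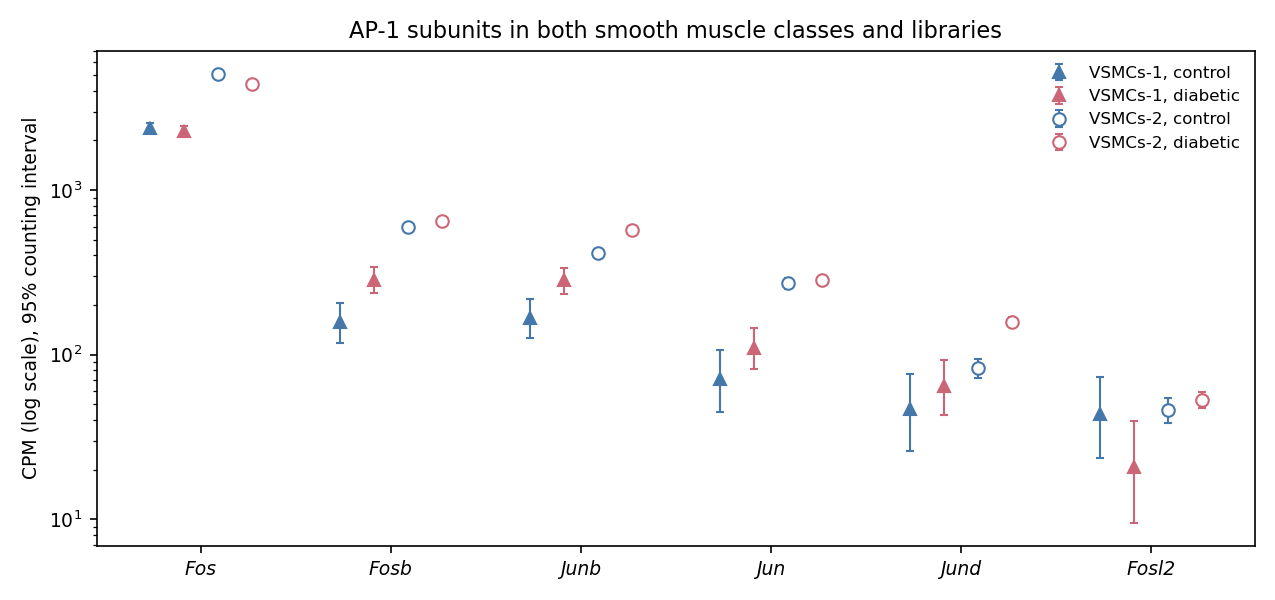
CPM on a log axis of the 6 AP-1 subunits detected in VSMCs-1, in VSMCs-1 (triangles) and VSMCs-2 (circles) of the control (blue) and diabetic (red) libraries, with exact 95% Poisson intervals for counting error. VSMCs-1 lies below VSMCs-2 for Fos, Fosb, Junb, Jun and Jund in both libraries, and Fosb and Junb are higher in diabetic than in control VSMCs-1.

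Genes of the Hox list, which mark position along the body axis, were mostly too low to compare. Of the 9 tested in both libraries, Hoxa7 was the only one called, beside 2.05% lower over all genes, at 24.7 and 29.8 CPM against 74.7 and 68.4 CPM. In the diabetic library alone 17 could be tested, of which Hoxa5 and Hoxa7 were lower and Hoxa3, Hoxa4 and Foxf1, a forkhead factor on the same list, were higher. Over all genes, 561 of 9922 were lower and 620 higher in that library. No member was called in the shallower cells. At matched depth 2 Hox genes could be tested, Hoxa7 and Hoxb7, and both were lower, beside 4.94% lower over all genes. Of 31 Hox genes together, a UMI was found in 13 of 49 deeper control cells and 26 of 73 deeper diabetic cells, against 68 of 122 and 135 of 221 depth-matched VSMCs-2 cells. Their sum was 71.5 and 136 CPM against 276 and 250 CPM. Where along the aorta a cell came from was not recorded in the labels.

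Diabetic and control VSMCs-1 were then compared across 4093 genes with at least 20 UMIs. Beside the 130 higher genes, 187 (4.57%) were lower in the diabetic library, and the median log2 ratio was -0.01. Within the deeper cells 108 of 3209 (3.37%) were higher and 129 (4.02%) lower. In VSMCs-2, 484 of 10464 genes (4.63%) were higher and 417 (3.99%) lower. The deeper share of the class was 36.6% in control and 45.9% in the diabetic library, and its part in these counts was not tested beyond the values given for deeper cells.

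Among the higher genes were a developmental transcription factor and secreted proteins. Osr1 (chr12:9570116-9581500, plus strand), an odd-skipped zinc finger factor, stood at 266 CPM in control and 598 CPM in diabetic VSMCs-1, a ratio of 2.25 (1.76 to 2.91), and 2.20 in deeper cells. In VSMCs-2 it stood at 102 and 114 CPM. Sod3, which encodes the extracellular superoxide dismutase, stood at 976 and 1779 CPM, a ratio of 1.82 (1.60 to 2.08), beside 1.61 in VSMCs-2. Sod3 was thus called higher in both smooth muscle classes and Osr1 in VSMCs-1 but not in VSMCs-2, a difference between the classes that could not be tested. Gdf10 (chr14:33923587-33937983, plus strand), a growth factor of the bone morphogenetic protein family, stood at 37.1 and 112 CPM (3.03, 1.59 to 6.26), while VSMCs-2 held 15.8 and 8.92 CPM. Coch, a secreted matrix protein, stood at 34.0 and 119 CPM (3.51, 1.81 to 7.46). Coch was nearly absent from VSMCs-2, at 1.44 and 0.350 CPM.

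The cold-inducible RNA-binding protein gene Cirbp (2.21) and the linker histone gene Hist1h1c (3.64) were higher in diabetic VSMCs-1 and had ratios of 2.07 and 3.31 in VSMCs-2. The remaining named genes rested on 1 to 18 control UMIs and had wide intervals. They were Emc8 (2.85, 1.67 to 5.08), Araf (3.25, 1.48 to 8.10), Tmtc2 (4.90, 1.90 to 16.1), Cmtm7 (5.20, 1.55 to 27.2), C1qtnf12 (5.69, 1.72 to 29.6) and Slc24a3 (14.1, 2.24 to 586). For Slc24a3 the counts were 1 UMI in control and 19 in diabetic VSMCs-1.

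Heat shock chaperones were the clearest group among the lower genes. Of 19 tested, 9 were lower in diabetic VSMCs-1 and 0 higher, beside 4.57% lower over all genes, with a median log2 ratio of -0.55. Hspa8 (chr9:40800984-40810087, plus strand), the constitutive Hsc70 chaperone, stood at 3401 CPM in the control library and 1630 CPM in the diabetic library, a ratio of 0.479 (0.436 to 0.527). Hspb1, a small heat shock protein, stood at 238 and 92 CPM (0.386, 0.256 to 0.572). The others were Hsp90ab1 (0.662), Hsph1 (0.483), Hspd1 (0.582), Dnaja1 (0.627), Dnajb1 (0.512), Hspb7 (0.662) and Chordc1 (0.313), all chaperones or co-chaperones, and Stip1, a co-chaperone outside the list, was at 0.388. The summed list was 0.637 (0.606 to 0.669) of control, beside 0.698 in VSMCs-2, where 6 of 20 were lower. The group was thus lower in both smooth muscle classes of the diabetic library. Of 17 genes of the endoplasmic reticulum stress response 3 were lower, Hspa5 (0.607), Manf (0.607) and Dnajb11 (0.557), and 0 higher, beside the same 4.57%.

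Macrophage genes were lower in the diabetic library in both smooth muscle classes and outside them. Lyz2, which encodes lysozyme, stood at 133 and 20.6 CPM in VSMCs-1 (0.155, 0.0666 to 0.323), with 0.219 in VSMCs-2, and Cd74, the invariant chain of antigen presentation, at 117 and 22.9 CPM (0.195), with 0.212 in VSMCs-2. The chemokine gene Pf4 stood at 0.186 and 0.365. Of 13 macrophage markers, 11 had a UMI in each VSMCs-1 library, with Cd68 and Mrc1 at 0 in control and Fcer1g and Ctss at 0 in diabetic cells. They summed to 454 CPM in control and 117 CPM in diabetic VSMCs-1, to 323 and 73 CPM in VSMCs-2, to 521 and 132 CPM in Fib-2 and to 1323 and 556 CPM in endothelial cells. No VSMCs-1 cell held more than 4 UMIs of the list in control or 3 in diabetic cells, whereas the median macrophage held 330.5 and 207. The part of RNA from other cells in these genes was not tested.

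The other named lower genes were Myoz2, Snrpa, Map3k7cl, Adam33, Abhd2 and Phldb2. Myoz2, which encodes a calcineurin-binding protein of muscle, stood at 154 and 52.7 CPM (0.341, 0.199 to 0.570), against a ratio of 1.04 in VSMCs-2. Snrpa had a ratio of 0.292, Map3k7cl of 0.236, Adam33 of 0.194 (0.594 in deeper cells), and Abhd2 and Phldb2 of 0.186 each, on 16 control and 4 diabetic UMIs.

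Contractile and matrix genes were called between the groups at shares near those of all genes (3.18% higher, 4.57% lower). Of 30 contractile genes, Des (0.381) and Sncg (0.550) were lower and 0 higher, and the sum was 0.926 of control. Des, which encodes desmin, rested in part on 1 control cell that held 35.9% of its UMIs there. Its ratio was 0.0712 in deeper cells, and in VSMCs-2 it was called higher in the diabetic library (1.55, 1.40 to 1.71). Of 15 elastic fibre genes only Loxl1, a cross-linking enzyme, was called (1.77), and of 20 collagen genes and enzymes P4ha1 (0.424) and Serpinh1 (0.635) were lower. Of 12 transcription factors of smooth muscle, Klf4 (1.94), Gata6 (2.29) and Id4 (3.09) were higher in the diabetic library and 0 lower, beside 3.18% higher over all genes. Klf4, a factor known from the loss of the contractile state, stood at 80.3 and 156 CPM. None of 16 glycolytic, 9 interferon or 12 mitochondrial genes was called, beside 3.18% higher and 4.57% lower over all genes. Of 9 cholesterol synthesis genes Fdps (1.87) and Srebf2 (2.38) were higher, beside 13 of 24 in VSMCs-2.

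Genes of modulated smooth muscle cells showed 6 lower of 18 and 1 higher, S100a4 (1.53), beside 4.57% lower and 3.18% higher over all genes. In VSMCs-2, 13 of 28 were lower and 0 higher, with a median log2 ratio of -0.56. In VSMCs-1, 4 of the 6 rested on 1 control cell. That cell had 4307 UMIs, of which 3 were of the smooth muscle markers. It held 51 of 58 Spp1, 77 of 109 Lum, 136 of 156 Cytl1 and 30 of 40 1500015O10Rik UMIs of control VSMCs-1, and 68 of 150 Dcn UMIs. The matrix genes Spp1 (0.0640) and Lum (0.0953) are therefore values of that cell more than of the class. Vcam1 (0.371), an adhesion molecule for leukocytes, had 0 of its 26 control UMIs in that cell.

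**Figure D5:**
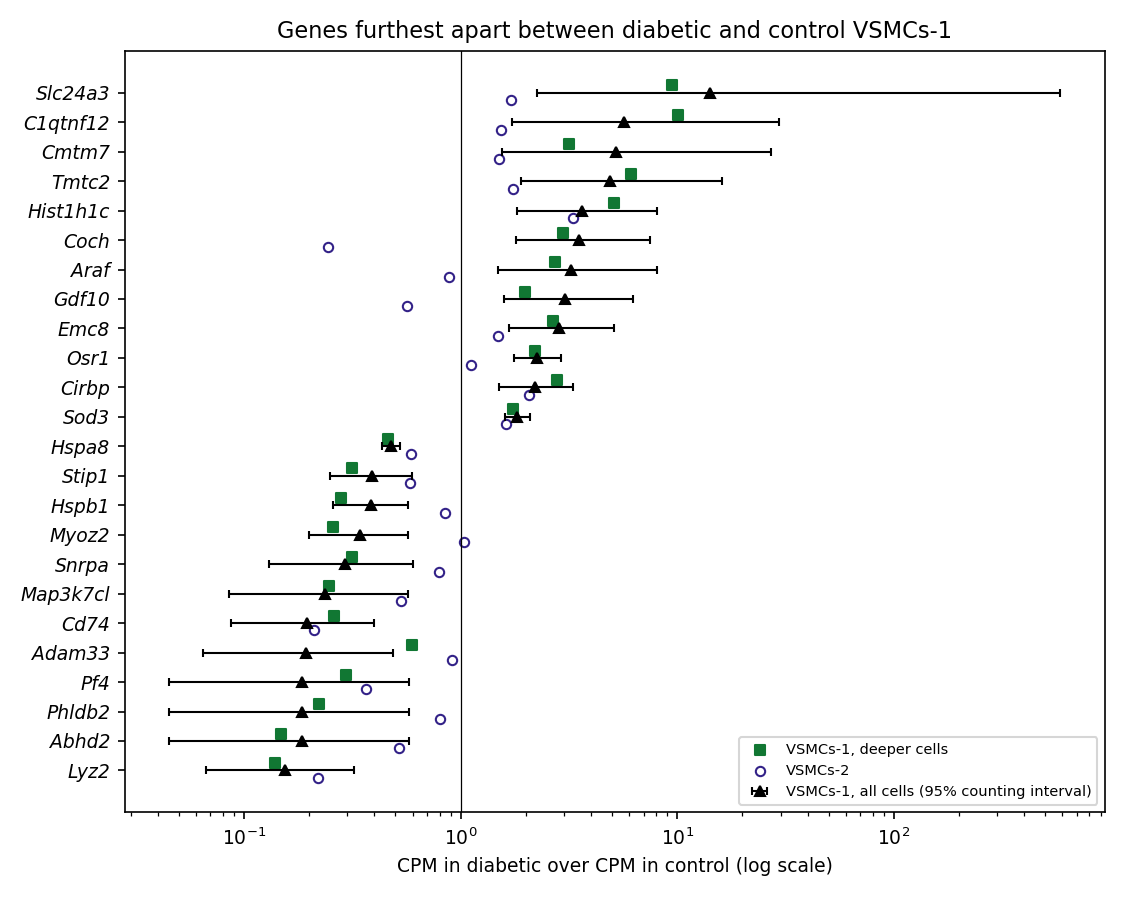
Ratio of CPM in diabetic over control VSMCs-1, on a log axis, for the 12 highest and 12 lowest called genes, over all cells (triangles, with exact 95% counting intervals), in deeper cells only (squares) and in VSMCs-2 (open circles). Osr1, Sod3 and Hspa8 have the narrowest intervals. The VSMCs-2 value lies on the other side of 1 for Gdf10, for example, and also for Coch, which was nearly absent from VSMCs-2.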

How the data were processed

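The authors deposited 1 table of UMI counts per library (10x 3' v2 chemistry, per the labels' protocols), with no normalization. The submitters' processing notes list Cell Ranger 3.1.0, Partek and the mm10 build. Which annotation release was used, and how barcodes were selected, is not given in the sources used here. Cell classes were taken as the authors deposited them, and 2 diabetic barcodes listed without a class were left out.

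UMIs were summed over the cells of a class in each library, so that deep cells weigh more, and scaled to CPM. Log profiles for the likeness between classes used log2(CPM + 10) over genes with at least 100 UMIs. A count of 0 was read against a floor of 3 UMIs. No doublet caller was run. As alternatives, the 5% of cells with most UMIs, or cells in which markers of another type matched the smooth muscle markers, were left out. Other alternatives were trimmed-mean (TMM) scaling with edgeR 4.0.16 in R 4.3.3, another UMI minimum or fold, totals that omit mitochondrial and ribosomal protein genes, an equal weight for each cell, thinning to 500 UMIs, each gene without its top cell, and depth ranges.

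The 12 highest and 12 lowest called genes by the interval bound nearest to 1 are named in each comparison, leaving out mitochondrial, ribosomal protein and haemoglobin genes, unnamed gene models, Y-linked genes and Xist, and genes with over 20% of their UMIs in 1 cell. The last were 10 of 130 higher and 22 of 187 lower genes between the groups, and 26 of 151 higher and 3 of 169 lower genes between the classes. The AP-1 subunits, the 3 markers and up to 6 members of each list are named besides. The members and the lists were chosen with earlier results of these data known. Scripts (Python 3.11.15, numpy 2.4.6, scipy 1.17.1, pandas 2.3.3) were tested on simulated data. Gene positions are from the mouse annotation on GRCm38, and promoters from RefSeq, which matched 11 of the 16 genes looked up.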

Additional observations from a re-analysis of the deposited data

Results flagged for a closer look

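In all, 8 genes were called in opposite directions between the groups in VSMCs-1 and VSMCs-2. In 6 of them (Apod, Car3, Cox6b2, Des, Gpx3 and Hp) 1 cell held over 20% of the UMIs of the VSMCs-1 library with the higher level. The other 2, Gdf10 and Sept1, were called higher in diabetic than control VSMCs-1 and lower in diabetic than control VSMCs-2. For Gdf10, the diabetic over control ratio in VSMCs-1 was 5.37 (2.54 to 11.4) times the ratio in VSMCs-2, with 12 control and 49 diabetic UMIs in VSMCs-1, where the ratio was 3.03 over all cells and 1.98 in deeper cells. For Sept1, a septin gene, it was 7.07 (2.26 to 22.1) times, with 4 control and 22 diabetic UMIs in VSMCs-1. Both genes were picked for their opposite calls, so a ratio of ratios above 1 follows from that choice. The intervals cover counting error only, and with 1 library per group the difference between the classes was not tested.

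Barcodes that the authors left without a class held cells with smooth muscle markers. Myh11, Acta2 and Tagln were all detected, with no other marker list as high, in 94 of 934 such diabetic barcodes (10.1%, 8.21 to 12.2%; median 4217.5 UMIs) and in 54 of 1155 such control barcodes (4.68%, 3.53 to 6.06%; median 1525.5 UMIs). These counts compare with 159 diabetic and 134 control cells in VSMCs-1, and with 856 and 496 in VSMCs-2. Of the 94 diabetic barcodes 34, and of the 54 control barcodes 34, had fewer UMIs than the shallowest VSMCs-2 cell of their library.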

How the results depend on the processing

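No paired analysis was possible because each group is 1 library, and for the same reason no replicate could be left out. Diabetic against control VSMCs-1 gave 317 called of 4093 genes tested. The count became 595 of 4093 with every cell weighted equally, where the pooled intervals were only rescaled to the new ratio. It became 83 of 1036 with each cell thinned to 500 UMIs, 177 of 1989 with at least 50 UMIs and 179 of 4093 with a 2-fold rule. The count stayed within 1.5 times of 317 under the other alternatives. VSMCs-1 against VSMCs-2 gave 320 of 8262, which became 53 of 2047 after thinning, 174 of 8262 with the 2-fold rule and 74 of 8057 for shallower cells alone. Of the 320, 47.2% were higher in VSMCs-1, against 34.1% with TMM scaling, which moved the log2 ratios by -0.11 in control and -0.09 in the diabetic library, 28.4% without the top cell of each gene, 35.8% after thinning, 28.4% for shallower cells, 57.5% with the 2-fold rule, 54.9% without cells holding other types' markers and 53.6% without haemoglobin-rich cells. The AP-1 sum, diabetic over control (1.06), was 0.870 with equal weights, 0.944 after thinning and 1.26 in deeper cells. The contractile sum stayed below 1 throughout. In control (0.800) it was 0.743 with TMM, 0.825 with equal weights, 0.825 after thinning, 0.851 without cells holding other types' markers, 0.778 without top cells, 0.849 against VSMCs-2 up to the 90th percentile, 0.775 at matched depth, 0.907 in shallower cells and 0.816 without haemoglobin-rich cells. In the diabetic library (0.734) the same settings gave 0.688, 0.779, 0.771, 0.776, 0.717, 0.785, 0.747, 0.844 and 0.755, and leaving out the deepest 5% gave 0.756. The VSMCs-1 share was 3.18% in control and 4.60% in the diabetic library over all barcodes. Over cells with at least 1000 UMIs it was 5.15% of annotated diabetic cells, and 18.02% (control) and 12.4% (diabetic) of smooth muscle cells. In diabetic shallower cells the elastic fibre sum turned to 0.869 (0.791 to 0.954) of VSMCs-2. The values of Fez1 (0.961, 0.310 to 2.27), Rbp4 (1.02, 0.723 to 1.39) and Thbd (0.456, 0.0114 to 2.59) there, and of Phldb2 after thinning (2.53, 0 to 32.9, diabetic over control), crossed 1 with intervals that include 1. Of 1344 recomputed values of single genes and lists, 1181 stayed the same, 124 lost the call, 6 gained it and 28 moved. The other 5 had met the call rule and crossed 1. Values that had not met it were not counted as crossing. The minimum of 10 UMIs could not remove a call, so its 97 values say nothing on that. Thinning to 500 UMIs removed the call of 48 of 101 values. A gene stayed the same where its call did not change, and moved where it was newly called on the other side of 1. The sum of a list stayed the same inside its main interval and moved outside it, whether or not it met the call rule. Beyond fewer cells or UMIs in those settings, the cause was not tested. The matched-depth and shallower-cell comparisons, and those without haemoglobin-rich cells, were chosen after seeing the data.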

Other observations

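Both comparisons also called genes not yet described. H2-D1, a class I antigen-presenting molecule, stood at 488 CPM in control VSMCs-1 and 502 CPM in diabetic VSMCs-1, against 295 and 262 CPM in VSMCs-2, and Tapbp, which loads peptides on such molecules, at 145 and 163 CPM against 86.9 and 82.7 CPM. These 2 of 15 tested genes of interferon response and class I presentation were higher in VSMCs-1 in both libraries, and 0 were lower, beside 1.83% higher over all genes. At matched depth 1 of 9 was higher, beside 3.89%. The summed list there stood at 1.00 (0.908 to 1.10) of VSMCs-2 in control and 1.11 (1.04 to 1.20) in the diabetic library. Gucy1a1, a subunit of the nitric oxide receptor guanylate cyclase, stood at 52.5 and 55.0 CPM against 134 and 111 CPM. Gucy1a1 was 1 of 3 genes of 20 for calcium and ion handling that were lower in both libraries, with Kcnab1 and Rrad, beside 2.05% lower over all genes. The summed list for calcium and ion handling was not lower. It stood at 1.41 (1.33 to 1.48) of VSMCs-2 in control and 1.00 (0.958 to 1.05) in the diabetic library.

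Ctgf, a matrix-associated growth factor, was lower in diabetic than control VSMCs-1 (346 and 222 CPM), as was Tgfb2, a TGF-beta ligand (95.8 and 48.1 CPM). In VSMCs-2 their diabetic over control ratios were 0.982 and 1.10. The Wnt antagonist Sost was higher in the diabetic library, at 541 and 890 CPM (1.65, 1.37 to 1.98), with a ratio of 1.51 in VSMCs-2. The nuclear RNA Malat1 stood at 47545 and 34250 CPM in VSMCs-1 and at 39811 and 28298 CPM in VSMCs-2. A list of nuclear-retained RNAs, most of it Malat1, depended on depth. In deeper cells at matched depth its sum was 0.864 (0.842 to 0.886) of VSMCs-2 in control and 1.05 (1.02 to 1.07) in the diabetic library. In shallower cells the sum was 1.47 and 1.39 of that in all VSMCs-2 cells.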
